A study of Mus musculus with 4 samples.

Results

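Toll-like receptors, the co-receptor Cd14 and the adaptor Myd88 were examined in mouse foetal liver progenitors. The genes were Tlr1, Tlr2, Tlr3, Tlr4, Tlr6, Tlr7, Tlr9, Cd14 and Myd88, taken by name, and every probe set annotated to exactly 1 of them was used. This gave 15 probe sets for 9 of the 18193 genes with a probe set of their own on the array. RNA came from LSK cells (no lineage markers, cKit and Sca1 on the surface), the stem and multipotent progenitor fraction, sorted from female Hes1 GFP/WT embryos at E13.5. All 4 samples share this genotype, in which 1 Hes1 allele carries GFP and reports activity at the Hes1 locus, and the samples used here hold no embryos without GFP. The comparison set up by the labels is HES1-GFP positive (1 array) against HES1-GFP negative (3 arrays). Nothing in the labels ties the 3 negative samples to separate litters or sorts, and their spread, on which every p-value below rests, may be technical.

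Toll-like receptors recognise conserved microbial molecules. Tlr2 pairs with Tlr1 or Tlr6 at the cell surface to bind bacterial lipopeptides, Tlr4 binds lipopolysaccharide handed over by Cd14, and Tlr3, Tlr7 and Tlr9 sense nucleic acids inside endosomes. All of them except Tlr3 pass their signal through Myd88, while Tlr3, and Tlr4 in part, use the adaptor Ticam1 (TRIF). Haematopoietic stem and progenitor cells of adult mice are known to express several of these receptors and to form myeloid cells when they are stimulated.

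The label of the positive array was checked against Hes1 first. On the log2 scale Hes1 was at 6.57 in that array, against 8.78, 9.07 and 6.70 in negative replicates 1, 2 and 3, and therefore went against its label. Directions below are those of the library labelled positive. The 4 arrays had median intensities of 74.7 to 76.1 on the linear scale. Macrophage markers summed to an intensity of 8017 in the array labelled positive, against 35972, 35089 and 8480 in negative replicates 1, 2 and 3, with 7 of 15 genes below all negative arrays and 0 above. Of all genes, 23.0% lay below and 23.6% above, and the marker counts here stand beside these shares. B lineage markers summed to 4204, against 26020, 24983 and 4314, with 6 of 9 below and 0 above. For both lists negative replicates 1 and 2 were high, and negative replicate 3 was close to the array labelled positive. The median over genes of the array labelled positive minus negative replicate 3 was 0.19 log2 units for macrophage and -0.31 for B lineage markers. Markers of monocytes and granulocytes summed to 68736, against 42570, 42032 and 68636, with 5 of 11 above and 1 below, and that median was -0.005 log2 units. Dendritic cell markers summed to 6211, against 10443, 9752 and 7615, with 2 of 7 above and 4 below. Of the LSK markers, 7 were measured, all 7 brighter on average than the median probe set, and summed to 11425, against 10072, 8824 and 10592, with 5 of 7 above, 1 (Cd27) below and 1 (Mecom) within. Ly6a, which encodes Sca1, was not analysed here.

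No member passed the test for a difference between the labelled groups. limma called 0 of the 15 probe sets at an adjusted p under 0.05, where it called 0% of all 45037 probe sets, and the adjusted p of each of the 15 was 1.00. At an unadjusted p under 0.05 it gave 1 of the 15, the Cd14 probe set, where 4.51% of all probe sets did so. The array labelled positive lay above all 3 negative arrays in 6 of 15 probe sets and below all 3 in 2, while 23.2% of all probe sets lay above and 23.6% below. It lay at least 1 log2 unit above them in 1 of 15 (a Tlr3 probe set), against 1.35% of all probe sets, and at least 1 log2 unit below them in 1 of 15 (Cd14), against 0.631%. The median difference over the 15 was 0.21 log2 units, beside -0.01 over all probe sets.

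The members also varied within the negative group. Their SD over the negative arrays had a median of 0.67 log2 units, beside 0.25 over all probe sets, and ran from 0.16 to 1.60. The array labelled positive was at least 1 log2 unit from negative replicate 1 in 5 of 15 (12.8% of all probe sets), from replicate 2 in 7 (12.8%) and from replicate 3 in 5 (8.49%). Negative replicates 1 and 2 were that far apart in 6 of 15 (11.7%), replicates 1 and 3 in 4 (12.6%) and replicates 2 and 3 in 6 (12.8%). The counts for the array labelled positive thus overlapped those among the negative replicates. Of the 15 probe sets, 9 were brighter on average than the median probe set, at 6.23 log2 units, and the other 6 were dimmer, without detection calls to show whether they were above background.

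**Figure D1:**
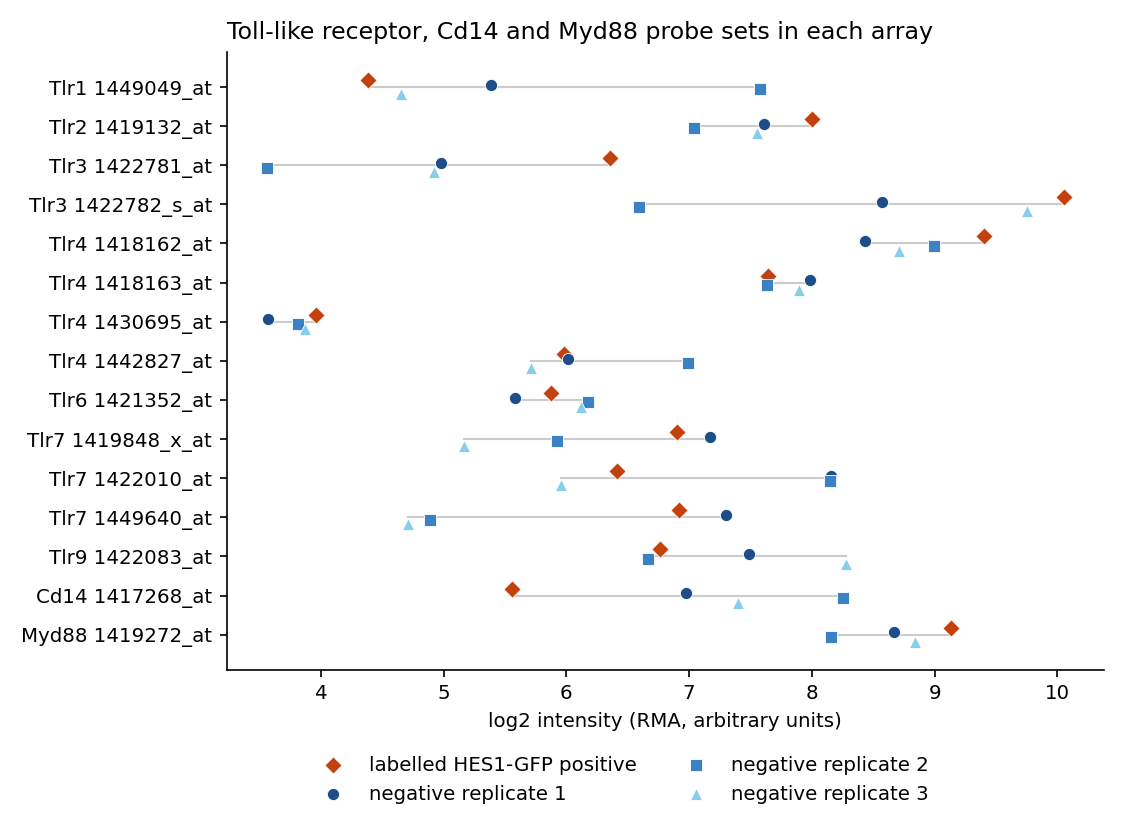
Log2 intensity (x axis) of the 15 probe sets (y axis) in each of the 4 arrays, with a grey line from the lowest to the highest array and small vertical offsets so that points do not hide each other. The red diamonds are highest in 6 probe sets, of Tlr2, Tlr3, Tlr4 and Myd88, and lowest in 2, of Tlr1 and Cd14.

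Among the lipopeptide receptors, the shared partner Tlr2 and its partners Tlr1 and Tlr6 did not follow each other. Tlr2 stood at 8.003 in the array labelled positive, against 7.61, 7.04 and 7.55 in negative replicates 1, 2 and 3, a difference of 0.61 log2 units (standard error 0.32). It was highest in the array labelled positive, with no overlap between the groups. Tlr1, which with Tlr2 recognises triacylated lipopeptides, was at 4.38, against 5.39, 7.57 and 4.65. Its difference was -1.49 log2 units (standard error 1.29), and the array labelled positive was the lowest, but negative replicate 2 alone stood high, so that the difference was -0.64 without that replicate. The mean of the Tlr1 probe set lay below the median level. Tlr6, which with Tlr2 recognises diacylated lipopeptides, was at 5.87, against 5.58, 6.18 and 6.12, within the negative range and with a difference of -0.09 log2 units (standard error 0.33). In bulk RNA of sorted cells, fewer cells that express a gene and less of its RNA per cell cannot be told apart, here and in the results that follow.

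The lipopolysaccharide receptor Tlr4 and its co-receptor Cd14 had no common direction: the Cd14 probe set lay below all negative arrays, and of the 4 probe sets of Tlr4, 2 lay above them and 2 within their range. Cd14, a membrane-anchored protein that delivers lipopolysaccharide to Tlr4, stood at 5.56 in the array labelled positive, against 6.97, 8.25 and 7.39 in negative replicates 1, 2 and 3. The array labelled positive was the lowest, at -1.41 log2 units from the nearest negative array. The difference from the negative mean was -1.98 log2 units (standard error 0.58), a level of 0.253 times the geometric mean of the negative arrays on the linear scale, and it ran from -2.27 to -1.63 when negative replicates were left out in turn. With an unadjusted p of 0.0287 and a limma adjusted p of 1.00 this did not pass, although the array labelled positive was lower than 3 of 3 negative arrays. Monocytes and macrophages carry Cd14. The macrophage sum given above was low, and the monocyte and granulocyte sum high, both in the array labelled positive and in replicate 3 of the negative ones. Cd14 was higher in replicate 3 than in replicate 1, and its order over the negative replicates was not that of either sum. The part of these cells in the Cd14 values was not tested. The brightest Tlr4 probe set, 1418162_at, stood at 9.40 in the array labelled positive, against 8.43, 8.999 and 8.71, a difference of 0.69 log2 units (standard error 0.30) with no overlap. The next, 1418163_at, annotated to the same accession, was at 7.64, against 7.98, 7.64 and 7.89, within the negative range. The dimmer 1442827_at was at 5.98, against 6.02, 6.99 and 5.71, and 1430695_at, the dimmest, was at 3.96, against 3.57, 3.82 and 3.87. The differences of these 3 were -0.19, -0.26 and 0.21 log2 units, with standard errors of 0.24, 0.59 and 0.23. The probe sets of 1 gene thus differed in direction, and the mean of the 4 probe sets differed by 0.11 log2 units.

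Of the receptors of the endosome, Tlr3 had the widest range of all members over the 4 arrays, 3.46 log2 units in its brighter probe set. Tlr3, the receptor for double-stranded RNA, was at 10.05 by probe set 1422782_s_at in the array labelled positive, against 8.57, 6.59 and 9.75 in negative replicates 1, 2 and 3. By probe set 1422781_at it was at 6.36, against 4.97, 3.56 and 4.92. Both probe sets put the array labelled positive highest and negative replicate 2 lowest, but negative replicate 3 was close to the array labelled positive in the brighter one and 1.44 log2 units below it in the dimmer one. The differences were 1.75 log2 units (standard error 1.35) and 1.87 log2 units (standard error 0.70, unadjusted p 0.0582). Without negative replicate 2 the brighter probe set differed by 0.89 log2 units. With an offset of 32 added before the logarithm the dimmer one differed by 1.03. Between the negative replicates themselves the brighter probe set covered 3.16 log2 units. It was bright in the array labelled positive and in replicate 3 of the negative ones, the arrays with the higher sums of monocyte and granulocyte markers. In negative replicates 1 and 2 these sums were close, at 42570 and 42032, while the probe set stood at 8.57 and 6.59. The part of these cells was not tested.

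Tlr7, a receptor for single-stranded RNA, had 3 probe sets that disagreed on which arrays were high. Probe set 1422010_at stood at 6.41 in the array labelled positive, against 8.16, 8.14 and 5.96 in negative replicates 1, 2 and 3. In it negative replicates 1 and 2 were high and the other arrays low, as in the summed macrophage and B lineage markers, and their part in this was not tested. Probe set 1449640_at was at 6.92, against 7.30, 4.89 and 4.71, and 1419848_x_at was at 6.90, against 7.17, 5.93 and 5.16. These 2 are annotated to 1 shared accession, which is not that of 1422010_at, and put negative replicate 1 and the array labelled positive high. The differences were -1.01, 1.28 and 0.82 log2 units (standard errors 1.08, 1.23 and 0.87) in the order given, and 0.37 for the mean of the 3, so the direction of Tlr7 depends on the probe set. Tlr9, the receptor for unmethylated CpG DNA, was at 6.76, against 7.49, 6.66 and 8.28, a difference of -0.72 log2 units (standard error 0.70), with the array labelled positive inside the negative range near replicate 2.

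**Figure D2:**
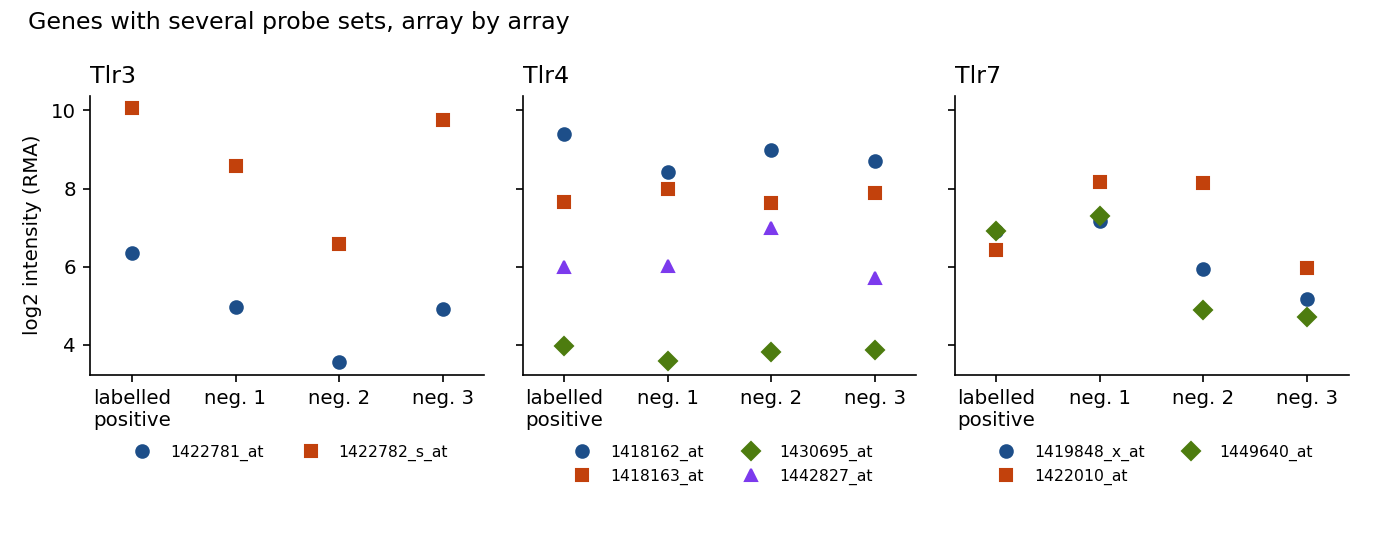
Log2 intensity (y axis) of each probe set of Tlr3, Tlr4 and Tlr7 in each of the 4 arrays (x axis), 1 marker shape and colour per probe set. The 2 probe sets of Tlr3 share their highest and lowest array, the 4 of Tlr4 have no shared order, and 1 of the 3 of Tlr7 (1422010_at) is high in negative replicate 2 where the other 2 are low.

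Myd88, the adaptor shared by the receptors other than Tlr3, stood at 9.14 in the array labelled positive, against 8.67, 8.16 and 8.84 in negative replicates 1, 2 and 3. The difference was 0.58 log2 units (standard error 0.35), or 0.38 without negative replicate 2. It was highest in the array labelled positive. Myd88, Tlr2 and both probe sets of Tlr3 shared an order in which the array labelled positive was highest and negative replicate 2 lowest. This was chosen after the values were seen, and 8.83% of all probe sets have it, against 4 of 15 here.

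**Figure D3:**
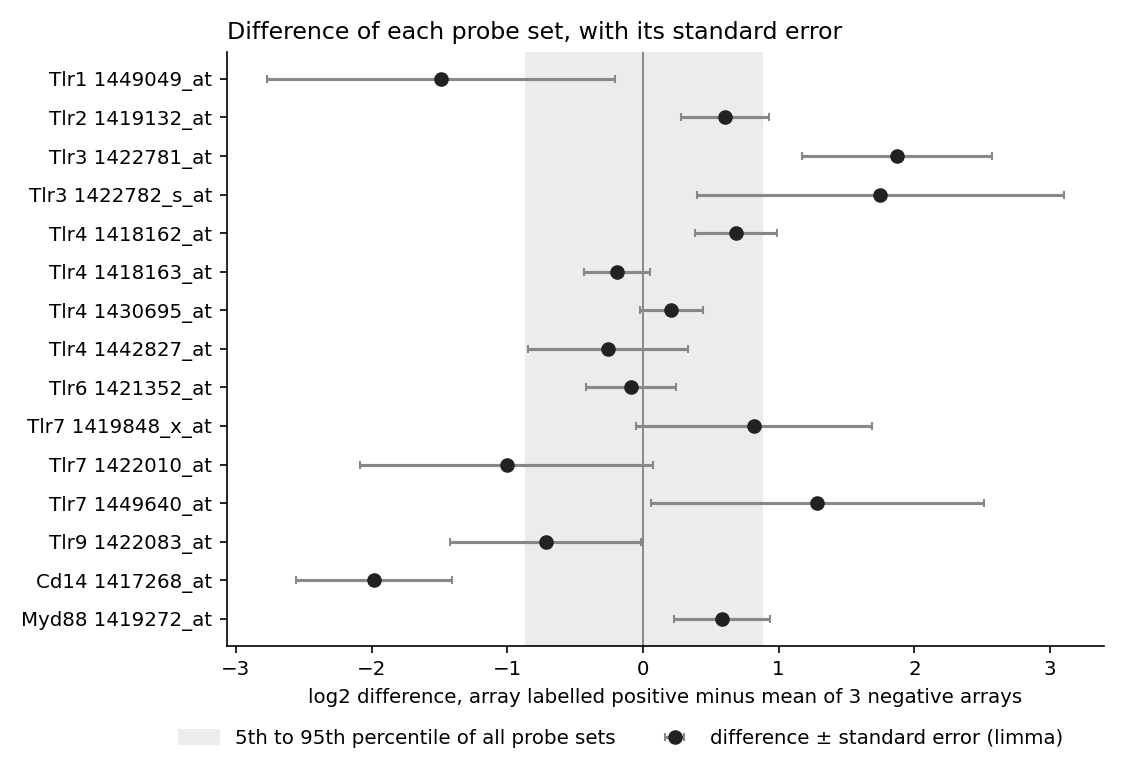
Log2 difference between the array labelled positive and the mean of the 3 negative arrays (x axis) for the 15 probe sets (y axis), with limma standard errors as bars and the 5th to 95th percentile of all probe sets, -0.86 to 0.88, in grey. Cd14, Tlr1 and 1 Tlr7 probe set (1422010_at) lie below this span, and both Tlr3 probe sets and 1 of Tlr7 (1449640_at) lie above it, with standard errors of 0.58 to 1.35.

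The promoter windows of Tlr2, Tlr3 and Myd88 are shown because every probe set of these 3 genes lay above the negative range. They are RefSeq sequences (build GRCm38.p6) of 300 bases around each annotated start, most of them upstream, 5′ to 3′ on the minus strand, at chr3:83841559-83841858 for Tlr2, chr8:45410331-45410630 for Tlr3 and chr9:119339969-119340268 for Myd88. Capitals mark matches, on either strand, to the interferon-stimulated response element (GAAANNGAAA), the PU.1 core (GAGGAAG) or the kappa B consensus.

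Tlr2: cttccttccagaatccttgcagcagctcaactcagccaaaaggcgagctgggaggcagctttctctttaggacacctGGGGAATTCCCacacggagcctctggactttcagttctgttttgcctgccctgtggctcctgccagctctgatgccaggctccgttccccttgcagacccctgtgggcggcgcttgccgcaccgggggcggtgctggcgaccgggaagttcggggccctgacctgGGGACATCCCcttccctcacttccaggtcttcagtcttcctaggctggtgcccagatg

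Tlr3: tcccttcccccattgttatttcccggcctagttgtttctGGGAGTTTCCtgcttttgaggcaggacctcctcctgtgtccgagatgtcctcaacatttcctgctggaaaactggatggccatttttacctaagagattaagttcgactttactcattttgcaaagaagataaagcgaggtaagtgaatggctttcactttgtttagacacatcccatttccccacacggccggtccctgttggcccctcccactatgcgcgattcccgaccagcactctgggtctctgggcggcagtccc

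Myd88: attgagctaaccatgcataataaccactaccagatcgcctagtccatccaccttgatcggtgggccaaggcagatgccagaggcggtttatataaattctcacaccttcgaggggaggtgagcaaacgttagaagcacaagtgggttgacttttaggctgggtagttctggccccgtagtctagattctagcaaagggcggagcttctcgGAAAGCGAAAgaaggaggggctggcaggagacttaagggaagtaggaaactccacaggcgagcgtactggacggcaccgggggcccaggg

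The Tlr2 window held 3 kappa B matches, of which 2 overlap by all but 1 base, and the Tlr3 window held 1. The Myd88 window held 1 match to the response element and 0 to the others. Of the 9 genes, 6 were searched, in 8 windows, while Tlr4, Tlr7 and Cd14 were not searched here. The response element was in 2 of the 8, of Tlr6 and Myd88, against 3.44% of all 32851 windows, the PU.1 core in 2, of Tlr1 and Tlr9, against 13.6%, and kappa B in 2, of Tlr2 and Tlr3, against 8.46%. The 3 genes thus had no motif in common among those searched, and a match is a run of letters and not a shown binding site.

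The rest of the signalling pathway was read from lists of 77 genes, 70 of them measured, each gene at its probe set with the highest mean. limma called 0 of the 70 higher and 0 lower, where it called 0% of 18193 genes. At an unadjusted p under 0.05 it gave 5 of the 70 (Irak3, Nfkb2, Nfkbie, Cxcl2 and Il1b), beside 4.51% of all probe sets. The array labelled positive lay above the negative arrays in 20 of the 70 and below them in 22, beside 23.6% and 23.0% of all genes. The median difference was -0.03 log2 units, beside -0.001 over all genes. The list counts below stand beside the same shares of all genes, 23.6% above and 23.0% below.

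Adaptors and proximal signalling molecules lay above the negative arrays in 6 of 11 measured genes and below in 0, with a median difference of 0.38 log2 units. Irak3, an inhibitory kinase-like protein of the pathway, stood at 8.78 in the array labelled positive, against 7.01, 7.47 and 7.86 in negative replicates 1, 2 and 3. Its difference was 1.33 log2 units, but -0.07 in its other probe set, and 0.63 for the mean of the 2. Tirap, which bridges Tlr2 and Tlr4 to Myd88, was at 7.77, against 6.29, 5.37 and 6.88, and both of its probe sets were higher. Traf6, the ubiquitin ligase downstream of Myd88, was at 9.64, against 9.29, 8.999 and 8.79, but the mean of its 5 probe sets differed by 0.24 rather than 0.61. Irak2, a kinase of the Myd88 complex, was at 6.74, against 6.48, 6.20 and 6.34. The other 2 of the 6 were Btk and Ticam1, named after their values were seen, and the adjusted p of each of these genes was 1.00.

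Co-receptors and trafficking proteins lay above in 3 of 12 and below in 5, with a median of -0.42 log2 units. Unc93b1, which carries the nucleic acid receptors to endosomes, was at 8.61, against 9.10, 9.43 and 9.28, and Cd180, a relative of the Toll-like receptors found on B cells among others, at 8.06, against 8.79, 8.90 and 8.39. Both were lowest in the array labelled positive. B lineage markers, whose part was not tested, were low there and in negative replicate 3. In that replicate Cd180 was lower than in replicates 1 and 2, while Unc93b1, at 9.28, was above replicate 1. Lgmn, a lysosomal protease that trims endosomal receptors, was at 6.73, against 9.62, 10.15 and 7.27, high in the same negative replicates as the macrophage marker sums, whose part was not tested. Lbp, the serum protein that passes lipopolysaccharide to Cd14, was at 9.88, against 8.01, 8.30 and 9.40. Its difference was 1.30, but -0.12 in its other probe set, and 0.59 for the mean of the 2. Lbp and Irak3 were next highest in negative replicate 3, the negative array with the highest monocyte and granulocyte marker sum, whose part was not tested. Of the 4 further Toll-like receptors measured, Tlr5 lay above the negative range, by 0.02 log2 units, Tlr8 and Tlr13 below it and Tlr12 within it. Their differences were 0.15, -0.80, -0.51 and 0.35 log2 units. The other probe set of Tlr12 differed by -0.33, and the mean of its 2 probe sets by 0.006. Tlr8 was at 3.54, against 3.56, 4.29 and 5.19, and 3 of these 4 genes were below the median level.

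Kinases lay above in 1 of 9 and below in 0, with a median of -0.14 log2 units. Tbk1, which activates interferon regulatory factors, was 0.006 log2 units above the highest negative array, and Map3k8, Map3k7 and Ikbkb were within the negative range, with differences of -0.61, -0.18 and -0.34. Transcription factors and inhibitors lay above in 5 of 15 and below in 5, with a median of 0.08. Nfkb2, a precursor subunit of NF-kappa B, was at 6.76, against 8.23, 7.66 and 7.69 (unadjusted p 0.0310), and its difference of -1.10 was -0.57 for the mean of 2 probe sets. Nfkbie, an inhibitor of NF-kappa B, was at 8.12, against 8.82, 9.35 and 8.95, a difference of -0.92, or -0.59 for the mean of 2. Rel, a further subunit, was at 7.87, against 8.27, 8.49 and 8.67, while Atf3, a stress-induced repressor of cytokine genes, was at 7.21, against 6.72, 5.12 and 5.66. Other genes of the NF-kappa B family and its inhibitors in the list, given here after their values were seen, were divided. Tnfaip3, an inhibitor, lay below the negative range like Nfkb2, Nfkbie and Rel, with a difference of -1.07. Rela went the other way, at 9.39, against 9.04, 8.58 and 8.95, and Nfkbib lay above the negative range by 0.07. Relb, Nfkbia and Nfkbiz were within that range. The list thus had no common direction.

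Genes switched on by Toll-like receptor signalling lay above in 4 of 19 and below in 10, beside 23.6% and 23.0% of all genes. Their median difference was -0.15 log2 units. Il1b, an inflammatory cytokine, was at 7.16, against 6.10, 6.12 and 5.96, with a difference of 1.10 (standard error 0.20) and a limma adjusted p of 0.846. Cxcl2, a neutrophil chemokine, was at 4.80, against 3.42, 3.46 and 3.63, with a difference of 1.30, which became 0.47 with an offset of 32, and the mean of its probe set lay below the median level. Each was at least 1 log2 unit above 3 of 3 negative arrays, as were 1.35% of all probe sets. Cxcl10, an interferon-induced chemokine, was at 4.70, against 5.28, 6.25 and 5.63, and Tnf, a further inflammatory cytokine, at 5.71, against 6.02, 6.05 and 6.11. Ligand-induced genes were therefore on both sides of the negative arrays.

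**Figure D4:**
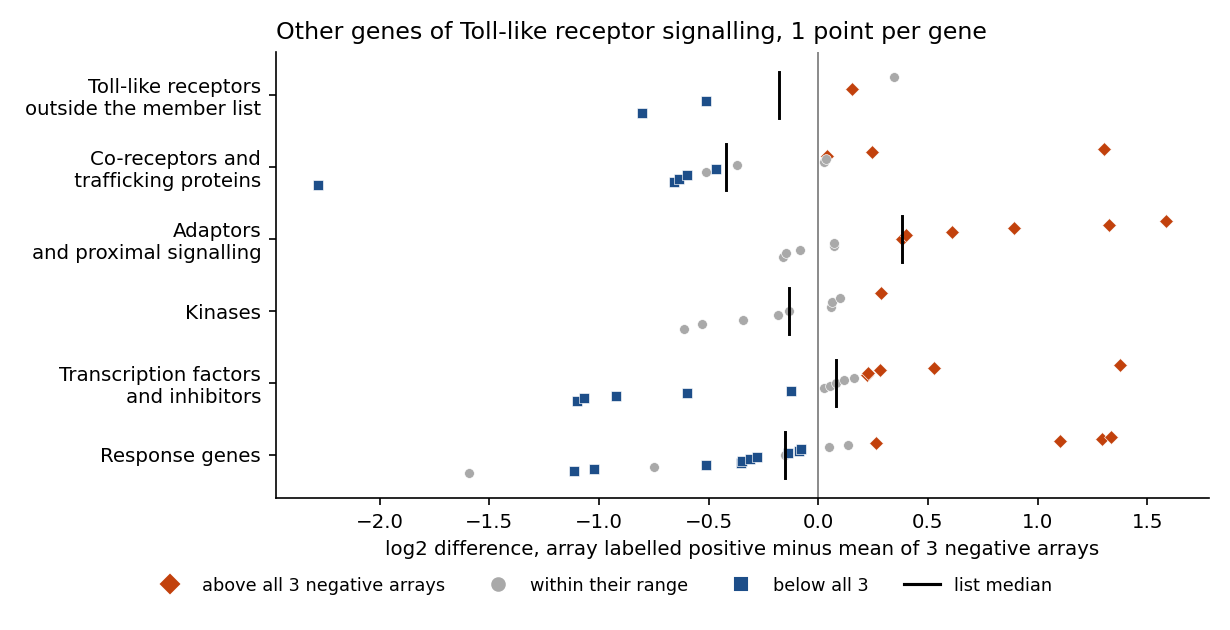
Log2 difference between the array labelled positive and the mean of the 3 negative arrays (x axis), 1 point per gene, for the 6 lists of other pathway genes (y axis), with point height inside a list set only by rank. Red diamonds lie above all 3 negative arrays, blue squares below all 3 and grey circles within their range, and the black bar is the list median. Adaptors have 6 diamonds and 0 squares, and response genes have 4 diamonds and 10 squares. Of all genes, 23.6% lay above and 23.0% below.

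The 5 genes with the array profile closest to that of Tlr3 probe set 1422782_s_at, by root mean square distance of centred log2 values over the 4 arrays, were Klf5, Hbb-y, Wfdc21, Fcnb and Gulp1, at distances of 0.163 to 0.235. Fcnb, a ficolin of granulocyte precursors, was at 11.74, against 9.96, 8.59 and 11.35. Klf5, a zinc finger transcription factor, was at 8.81, against 7.40, 5.69 and 8.42. With only 4 arrays such likeness is a description of these libraries. Hbb-y, an embryonic globin, belongs to a family of similar genes whose probes may share signal.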

How the data were processed

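Expression was measured on Affymetrix arrays in 4 samples, from RNA amplified with a Nugen Ovation kit per the labels' protocols. The deposited values are probe set intensities made by RMA, per the submitters' processing notes, with version and software not given in the sources used here. From their range they are on a linear scale, and log2 was taken with no pseudocount. RMA equalizes array distributions, so total RNA per cell cannot be compared, and small input can add noise to dim probe sets. Of 45101 probe sets, 64 controls were left out, and 34945 had 1 gene symbol in the platform annotation. limma 3.58.1 (R 4.3.3; lmFit, eBayes, two-sided, Benjamini-Hochberg over 45037 probe sets, threshold 0.05) compared positive with negative. The spread came from the 3 negative arrays (2 residual degrees of freedom), a spread which the positive array is taken to share. The number of arrays limits every precision. The script was tested on simulated data. A list gene was read at its highest-mean probe set. Named genes were the members, Hes1, up to 4 genes per pathway list with the largest absolute t, and the 5 closest profiles. Listed genes without a probe set of their own were not analysed here. Members and lists were chosen with earlier results of these data known. Alternatives were cyclic loess, an offset of 32, only probe sets above the median level, trend and robust moderation, 2 gene-level fits, and leaving out each negative replicate.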

Additional observations from a re-analysis of the deposited data

How the results depend on the processing

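Under all alternatives run, limma called 0 member probe sets and 0 pathway genes. The main fit called none of all probe sets either, so this is not particular to the members. Shares of all probe sets called under the alternatives are not given here. The number of member probe sets outside the negative range, 8, was 5 when only the 9 above the median level were kept. There 1 lay below the range instead of 2. With negative replicates left out in turn, the number outside ran from 10 to 11, the number above from 6 to 8 (8 without replicate 1) and the number below from 3 to 4 (4 without replicate 2 or 3). Leaving out an array narrows the range by construction, for all probe sets alike. Their share outside the narrower range is not given here, so these counts are not a result about the members. Of 117 recomputed member differences 3 changed direction: Tlr7 1422010_at, at 0.37 log2 units for the mean of 3 probe sets, Tlr4 1442827_at, which ran from -0.52 to 0.12, and Tlr6, which ran from -0.27 to 0.023, both upwards without replicate 2. Tlr12, at its brighter probe set, ran from -0.10 to 0.60, the lowest without replicate 1. The closest profiles shared 4 of 5 genes under cyclic loess and under the offset, both chosen after seeing the data. No paired analysis was possible because the groups share only 1 replicate number. With 1 positive array its own spread is unknown, and 6 of 15 probe sets lay below the median level without detection calls.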
